A study of Mus musculus with 12 samples.

Results

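Colon tumours that lacked p53 in intestinal epithelial cells were compared with wt tumours, 3 libraries against 3 of the 12 in the series. All mice were of the FvB strain and received the carcinogen azoxymethane at 10 mg/kg, injected into the peritoneum weekly for 6 weeks; tumours were taken 16 weeks after the first dose. The labels give neither the age of the mice nor the driver of the epithelial deletion, and do not say whether replicates came from separate animals; p-values therefore cover only the spread among these libraries, which may be technical. The remaining libraries, 3 from tumours without miR-34a in the same epithelial cells and 3 from tumours without both (double deficient), served to read the same deletion in 6 other samples. RNA was taken from whole tumours, which hold stroma, vessels and immune cells beside the epithelium.

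p53 is a transcription factor that is held at low level by the ubiquitin ligase MDM2 and accumulates when DNA is damaged. It binds paired half-sites in DNA and switches on genes that halt the cell cycle, trigger apoptosis, repair DNA or alter metabolism, several of which feed back on p53 itself. In colon cancer its loss is a frequent late step, usually after activation of the Wnt pathway.

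Values are the normalized scores deposited per gene, taken as log2(value + 1), and differences are p53 deficient minus wt ± SE, with n = 3 libraries per group. Of 21792 genes, 21322 had a mean value of at least 1 over the 12 libraries and were tested with limma; the lowest mean inside that threshold was 1.0 and the highest outside it 0.917. A gene is called changed at a Benjamini-Hochberg adjusted p under 0.05. This held for 5 genes, or 0.0234% of those tested, of which 4 fell (0.0188%) and 1 rose. At an unadjusted p under 0.05 there were 1839 lower genes (8.62%) and 1426 higher genes (6.69%), and the median over all genes was -0.04. All 3 p53 deficient values lay below all 3 wt values for 9.27% of genes and above them for 6.91%. Gene lists are described below by how many members lay lower or higher at an unadjusted p under 0.05, set against these shares.

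Sex-linked and positional genes varied between the 6 libraries within a genotype. Averaged over 4 Y-linked genes, the log2 level was 0.00, 2.84 and 4.35 in wt 1, 2 and 3 and 3.73, 5.21 and 6.98 in p53 deficient 1, 2 and 3. Xist, the RNA that silences an X chromosome in females, made up 23.2% of the column sum in wt 1 and at most 0.0146% in the other 5. Averaged over 15 posterior Hox genes, which mark the distal gut, it was 8.38 in p53 deficient 2 and 11 to 12.36 in the other 5. The library name of p53 deficient 1 carries another run code than those of the other 5. The part of these differences in the results was not tested beyond the alternatives given.

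Trp53 encodes p53 and lies on chromosome 11 (GRCm38, 69580359 to 69591873, ENSMUSG00000059552). It read 4512, 4305 and 4126 in the wt libraries against 598, 401 and 576 in the p53 deficient ones. Trp53 fell by 3.06 ± 0.24 on the log2 scale, 8.33 times, with an adjusted p of 0.000753, and the groups lay far apart. An exact two-sided permutation test of 3 against 3 gave p = 0.1, the smallest it can give. Trp53 passed limma's test under all 26 alternative settings. Vil1, the gene of villin in the epithelial brush border, read 29687, 23814 and 20965 in the wt libraries against 21205, 29871 and 22851 in the p53 deficient ones (-0.01 ± 0.22), with overlapping groups.

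Some p53 targets carry the factor's binding motif next to their start. The p53 consensus was searched as 2 half-sites of 10 bases with the core C and G of each intact, at most 2 mismatches and a spacer of at most 1 base. The pattern is its own reverse complement, so both strands were read at once, in RefSeq windows (GRCm38.p6) from 250 bases before to 50 after each gene's start. A gene was counted if any of its windows held a match. This was so for 113 of 13547 tested genes with a window (0.834%) and for 8 of the 60 p53 targets with one (13.3%). It held for 3 of 19 targets that lay lower in p53 deficient tumours (15.8%) and for 5 of 41 other targets (12.2%). The 3 windows of the first kind are given in the direction of transcription, with the match in capitals, because these genes carry different roles of p53: Ccng1 and Cdkn1a act on the cell cycle and Bax in apoptosis. A match is a description of the sequence and says nothing of binding in these tumours.
Ccng1 (match at chr11:40755462-40755481, minus strand): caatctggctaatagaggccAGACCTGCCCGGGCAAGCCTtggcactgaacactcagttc
Cdkn1a (match at chr17:29090928-29090947, plus strand): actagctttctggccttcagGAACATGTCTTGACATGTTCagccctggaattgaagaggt
Bax (match at chr7:45467079-45467099, minus strand): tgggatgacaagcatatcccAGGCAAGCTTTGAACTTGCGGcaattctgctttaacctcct
The match ended 175 bases before the RefSeq start used for Ccng1, 31 before that for Cdkn1a and 180 before that for Bax. For Cdkn1a this start lies at the upstream end of the gene, and distances to any start further downstream were not taken. It held 1 mismatch in Ccng1 and Cdkn1a and 2 in Bax, and a spacer of 1 base in Bax alone of the 3.

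Among 74 tested p53 targets from 3 role lists, 3 fell and none rose, and the median difference was -0.30. The lists were chosen with earlier results of these data known, so these counts are no independent test of a role. At an unadjusted p under 0.05, 22 lay lower and 2 higher, where 8.62% and 6.69% of all genes did. Sco2 and Tigar, also on the lists, were not analysed here. In bulk tissue, fewer cells that express a gene and less RNA per cell cannot be told apart.

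The cell cycle and feedback targets were led by Ccng1 and Psrc1. Of 22 tested, 1 fell, 6 lay lower and none higher, with a median of -0.27. Ccng1, cyclin G1, which recruits a phosphatase to MDM2, read 5125, 4437 and 3217 in the wt libraries against 1764, 1665 and 1363 in the p53 deficient ones. It fell by 1.40 ± 0.18 (adjusted p = 0.0368), with every p53 deficient value below every wt value. Its match to the p53 motif is printed above.

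Cdkn1a, the gene of the cyclin-dependent kinase inhibitor p21, read 22035, 35763 and 11867 in the wt libraries against 9454, 10113 and 12694 in the p53 deficient ones. Its difference was -0.98 ± 0.32 (adjusted p = 0.197), and the groups overlapped because wt 3 lay below p53 deficient 3. Psrc1, a microtubule-associated gene, had values of 362, 865 and 389 against 70, 93 and 86, a difference of -2.57 ± 0.43 (adjusted p = 0.0684) with no overlap. Zmat3, an RNA-binding zinc finger gene, was at 1975, 2971 and 1439 against 1289, 950 and 922 (-0.97 ± 0.24). Sesn2, a sestrin that restrains the growth kinase mTORC1, was at 1704, 2779 and 1604 against 936, 1285 and 1006 (-0.88 ± 0.23). In both, all p53 deficient values lay below all wt values, and neither passed the adjusted test (adjusted p = 0.122 and 0.131). Rchy1, a ubiquitin ligase gene that acts on p53, was at -0.33 ± 0.14.

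The other targets of this role did not lie lower at an unadjusted p under 0.05. Mdm2 read 3533, 5088 and 4198 in the wt libraries against 3553, 3988 and 4296 in the p53 deficient ones, a difference of -0.10 ± 0.14 (adjusted p = 0.768). The p53 deficient values lay within the wt range. Gadd45a, a stress gene of growth arrest, was at 2308, 2912 and 2564 against 2564, 3879 and 3516 (0.34 ± 0.18, adjusted p = 0.399). Btg2, an antiproliferative gene, was at -0.27 ± 0.26 and Sesn1 at -0.27 ± 0.23, both with overlapping groups. Trp53cor1, the long non-coding RNA beside Cdkn1a, was at 35, 68 and 0 in wt and at 3, 4 and 3 in p53 deficient tumours (-1.65 ± 1.17), so that wt 3 lay below all others. Without wt 3 its difference was -3.53 (adjusted p = 0.0155), the single alternative of 25 in which it passed, and in double against miR-34a deficient tumours it was at -4.39 ± 1.17 (adjusted p = 0.0940). Trp53inp1, a nuclear protein gene that acts with p53, was at 3396, 6787 and 5026 in wt and at 5606, 2422 and 1391 in p53 deficient tumours (-0.87 ± 0.46, adjusted p = 0.394). Ptprv, a tyrosine phosphatase gene, was at 50, 66 and 26 against 23, 13 and 40 (-0.91 ± 0.54), and Rprm, which encodes the arrest protein reprimo, at 47, 27 and 230 against 24, 28 and 29 (-1.28 ± 0.90). The groups of these 3 overlapped, and their SE leaves room for differences as large as those of members that lay lower.

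Of 21 death and survival targets none passed the adjusted test, 7 lay lower and 1 higher, and the median was -0.24. Eda2r, a receptor of the tumour necrosis factor family on the X chromosome, read 1411, 3671 and 1164 in the wt libraries against 155, 27 and 42 in the p53 deficient ones. This was the largest difference of the 74 targets, at -4.99 ± 0.74 or 31.8 times (adjusted p = 0.0604). The lowest wt value lay well above the highest p53 deficient value, and wt 1, the library high in Xist, lay between the other wt libraries. Phlda3, an inhibitor of the survival kinase AKT, was at 6258, 8986 and 2312 against 883, 928 and 1221 (-2.34 ± 0.40, adjusted p = 0.0800), again without overlap.

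Genes that act on mitochondria in apoptosis had smaller differences. Bbc3, which encodes the BH3-only protein PUMA, was at 478, 513 and 233 in wt and at 147, 99 and 161 in p53 deficient tumours (-1.53 ± 0.37, adjusted p = 0.121). Bax, the pore-forming effector of apoptosis whose promoter match is printed above, was at 4675, 6216 and 2755 against 1836, 2847 and 3220 (-0.75 ± 0.28, adjusted p = 0.236). The Bbc3 groups did not overlap, while for Bax wt 3 lay among the p53 deficient values. Pidd1, a death domain gene, was at -0.82 ± 0.18, and Ei24, an apoptosis-associated membrane protein gene, at -0.39 ± 0.11. Bid, which links death receptors to mitochondria, was at -0.45 ± 0.17.

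Pmaip1, which encodes the BH3-only protein NOXA, was at 1790, 2244 and 2177 against 2644, 3046 and 2161 (0.33 ± 0.21, adjusted p = 0.469). Perp, a desmosomal p53 target, was at 17644, 14354 and 16368 against 16741, 16076 and 17539 (0.06 ± 0.12, adjusted p = 0.842). Both had overlapping groups. The single higher member was Dapk1, a death-associated kinase gene, at 2530, 3425 and 3285 against 5004, 4263 and 9541 (0.95 ± 0.34, adjusted p = 0.222), with all p53 deficient values above all wt values.

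The list of metabolic and repair targets, which also takes in genes of other roles, held 2 of the genes that fell. Of 31 tested, 9 lay lower and 1 higher, with a median of -0.40. Fam212b, also called Inka2, an inhibitor of the kinase PAK4, read 377, 576 and 285 in the wt libraries against 35, 27 and 22 in the p53 deficient ones. It fell by 3.80 ± 0.39 or 13.9 times (adjusted p = 0.00781) and passed under 23 of the 26 alternatives. 9030617O03Rik, now named Dglucy, an enzyme gene of D-glutamate metabolism, was at 561, 504 and 302 against 108, 127 and 85 and fell by 2.05 ± 0.26 (adjusted p = 0.0368). Neither gene's groups overlapped.

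Ephx1, the microsomal epoxide hydrolase that detoxifies reactive epoxides, read 2130, 1957 and 644 in the wt libraries against 90, 244 and 105 in the p53 deficient ones. Its difference was -3.38 ± 0.56 or 10.4 times (adjusted p = 0.0684), with no overlap. Gls2, a glutaminase gene, was at 460, 458 and 534 against 282, 178 and 123 (-1.39 ± 0.35), and Ddit4l, an inhibitor of mTORC1 signalling, at 32, 62 and 25 against 9, 4 and 11 (-2.16 ± 0.55). Sat1, the polyamine acetyltransferase, was at 28210, 24048 and 20321 against 15241, 19050 and 15520 (-0.54 ± 0.17). None of these 3 overlapped between groups, and their adjusted p lay at 0.122, 0.131 and 0.179. Tap1, a peptide transporter of antigen presentation, was the higher member (0.63 ± 0.28, adjusted p = 0.319).

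**Figure D1:**
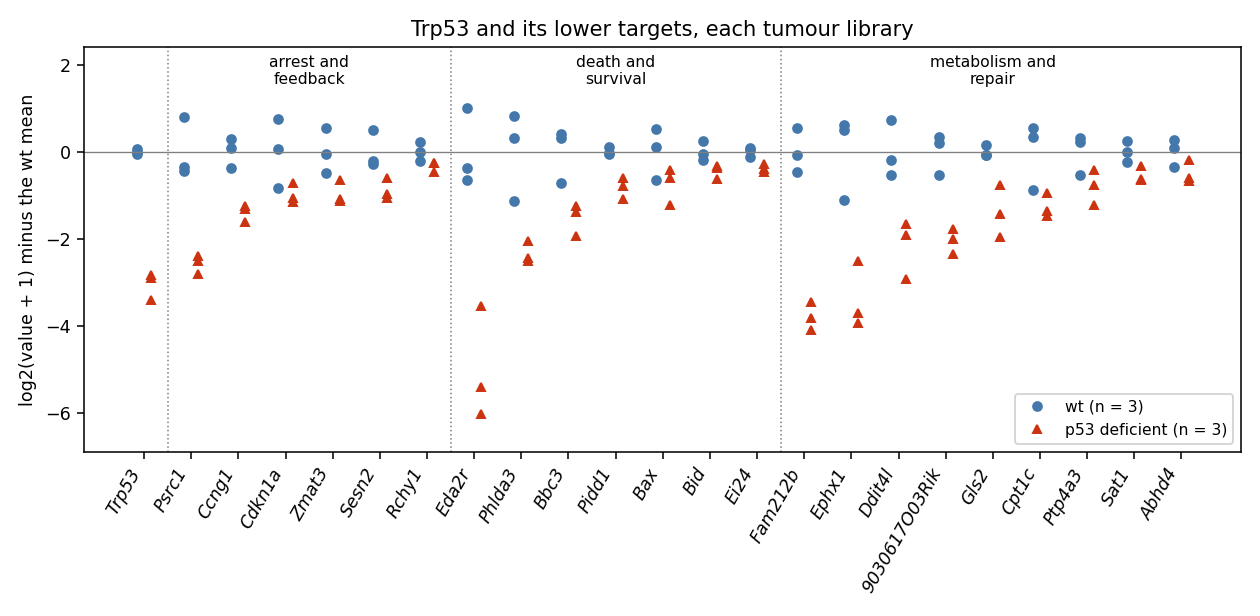
Trp53 and the 22 p53 targets that lay lower at an unadjusted p under 0.05, by role; the y axis is log2(value + 1) minus the wt mean of that gene, circles are the 3 wt and triangles the 3 p53 deficient libraries. Eda2r lies lowest, and the p53 deficient values of Fam212b, Ephx1 and Trp53 stay more than 2 units below the wt mean.

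One wt library stood nearer to the p53 deficient libraries for these genes. Of the 22 lower targets, wt 3 had the lowest of the 3 wt values for 16, against 5 for wt 2 and 1 for wt 1. Over all 74 targets it was the lowest for 40. Without wt 3, 14 genes of the whole table passed the adjusted test in place of 5, and without p53 deficient 1 there were 88; without wt 1 there was 1. Adding the Y-linked level to the fit left 1, and adding the direction in which libraries of a genotype do not vary left 2. Ccng1 passed under 8 of 26 alternatives and 9030617O03Rik under 7, each with an adjusted p of at most 0.301.

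The same deletion was read in 6 libraries that share no sample with the first comparison, double deficient against miR-34a deficient tumours. The estimate of the spread is common to both. Deviations from the genotype means correlated at 0.121, 0.0044 and 0.539 between p53 deficient and double deficient libraries 1, 2 and 3. The 2 sets are therefore not shown to be independent. Xist made up 5.92%, 4.52% and 1.24% of the column sum in double deficient 1, 2 and 3, and 52.8%, 0.234% and 0.00141% in the miR-34a deficient libraries. The Y-linked mean was 0.25, 0.4 and 0.79 against 0.0, 2.77 and 5.28. The posterior Hox mean was 10.48 to 11.52 against 11.83 to 12.14. The part of these differences was not tested beyond the alternatives given. In double against miR-34a deficient tumours 193 genes changed (0.905% of those tested), 132 of them lower (0.619%) and 61 higher (0.286%). Without double deficient 3 there were 23. All 5 genes that changed in p53 deficient tumours against wt also changed there, in the same direction. The differences there were -2.61 ± 0.24 for Trp53, -3.85 ± 0.39 for Fam212b, -1.81 ± 0.18 for Ccng1, -2.47 ± 0.26 for 9030617O03Rik and 1.83 ± 0.36 for Sat2. Of the 3265 genes at an unadjusted p under 0.05 in p53 deficient tumours, 78.6% had the same sign in the second comparison, against 63.4% of all tested genes.

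More p53 targets passed in the second set. Of the 74, 9 fell and none rose, and 33 lay lower at an unadjusted p under 0.05, where 10.6% of all genes did; the median was -0.47. Besides Fam212b, Ccng1 and 9030617O03Rik, the genes that fell were Eda2r (-5.65 ± 0.74), Ephx1 (-3.54 ± 0.56), Phlda3 (-2.34 ± 0.40), Cdkn1a (-1.74 ± 0.32), Sesn2 (-1.60 ± 0.23) and Zmat3 (-1.40 ± 0.24). Their adjusted p lay between 0.00775 for Eda2r and 0.0354 for Cdkn1a. Cdkn1a was at 17793, 24443 and 24519 in miR-34a deficient tumours and at 5448, 7855 and 6695 in double deficient tumours, with no overlap, unlike in the first set. Of the 22 targets that lay lower in p53 deficient tumours, 18 also lay lower here at an unadjusted p under 0.05. Of all 3265 genes at that threshold in the first comparison, in either direction, 984 passed it here with the same sign. The difference between the 2 comparisons passed the adjusted test for no p53 target. Bid had the opposite sign here (0.59 ± 0.17), and the difference of the 2 differences was 1.04 ± 0.24 (unadjusted p = 0.00105, adjusted p = 0.335).

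**Figure D2:**
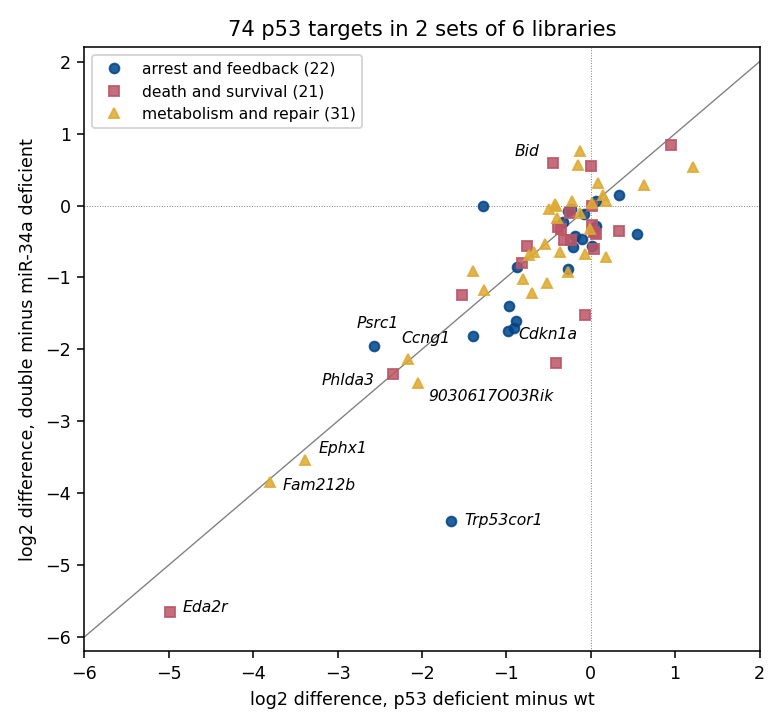
Log2 difference of each of the 74 p53 targets in p53 deficient minus wt tumours (x axis) and in double minus miR-34a deficient tumours (y axis), with equal values on the diagonal and markers by role. Eda2r, Fam212b, Ephx1 and Phlda3 lie low on both axes, and most other targets lie nearer to 0.

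The gene that rose lies beside Trp53 itself. Sat2, a paralogue of Sat1 (chromosome 11, 69622024 to 69623870, 30.2 kb past the end of Trp53), read 24, 27 and 19 in the wt libraries against 98, 167 and 228 in the p53 deficient ones. It rose by 2.70 ± 0.36 or 6.48 times (adjusted p = 0.0378), and the lowest p53 deficient value was above every wt value. Sat2 passed under 8 of the 25 alternatives that tested it, with adjusted p from 0.0179 to 0.301. Shbg, the sex hormone-binding globulin gene 22.9 kb from Trp53, was at 6, 3 and 3 against 8, 66 and 63 (2.81 ± 0.73, adjusted p = 0.134).

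Alox12b, a lipoxygenase gene of the skin barrier on the other side of Trp53, was at 1, 1 and 0 against 7, 5 and 15 (2.53 ± 0.59, adjusted p = 0.113). Low values such as these leave the size of a fold uncertain. Eif4a1 and Eif5a, translation factor genes of the same stretch, were at 0.42 ± 0.12 and 0.42 ± 0.13. In the second set of libraries 4 genes of the stretch, apart from Trp53, changed. These were Sat2, Alox12b (2.87 ± 0.59, adjusted p = 0.0492), Eif4a1 (0.64 ± 0.12, adjusted p = 0.0373) and Eif5a (0.68, adjusted p = 0.0350), all higher. Shbg was at 3.54 ± 0.73 there (adjusted p = 0.0523).

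Most genes of the stretch did not stand out. Of 91 tested genes within 1 Mb of Trp53, 13 lay higher and 7 lower at an unadjusted p under 0.05, and the median was 0.08. Of all genes 6.69% lay higher and 8.62% lower, so the stretch exceeded the share of all genes on the higher side only. Of those 91, 1 changed. Whether reads on one strand could be told from the other is not given in the sources used here, so overlapping genes of the stretch cannot be told apart.

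**Figure D3:**
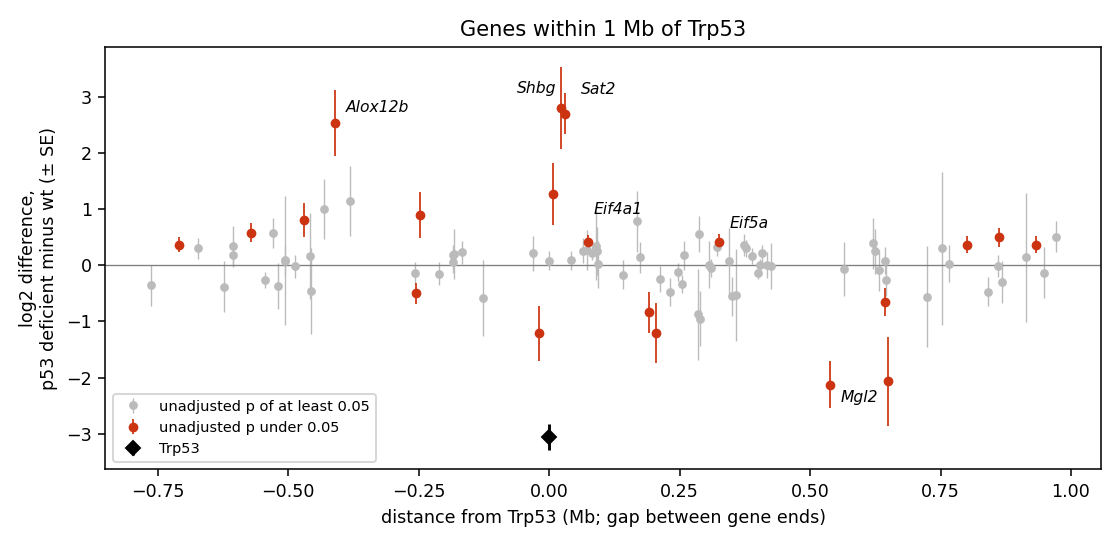
Log2 difference of p53 deficient minus wt tumours (± SE, n = 3 per group) for 91 genes within 1 Mb of Trp53, by the gap to Trp53 in Mb, with Trp53 as a diamond at 0. Sat2 and Shbg lie high just past Trp53, and most genes lie near 0.

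Genes of ribosome production lay higher as a group. Of 34 members, none passed the adjusted test, 21 lay higher and none lower, against 6.69% of all genes, and the median was 0.45. For 22 members all p53 deficient values lay above all wt values, against 6.91% of all genes. Ftsj3, which processes pre-ribosomal RNA, read 2402, 2165 and 2460 in the wt libraries against 4611, 5764 and 4432 in the p53 deficient ones (1.07 ± 0.17, 2.10 times, adjusted p = 0.0684). Mybbp1a, a nucleolar protein gene, was at 5816, 5814 and 6183 against 12129, 10362 and 11504 (0.93 ± 0.16, adjusted p = 0.0684). In both, the lowest p53 deficient value exceeded the highest wt value by a wide margin, and the wt values lay close together.

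Rrp12, of ribosomal subunit export, was at 1278, 1036 and 1096 against 2160, 1934 and 1954 (0.83 ± 0.17). Ncl, which encodes nucleolin, was at 31022, 29654 and 37704 against 56103, 51943 and 56191 (0.75 ± 0.16), and Npm1, which encodes nucleophosmin, at 22790, 23017 and 29134 against 33500, 33431 and 33549 (0.43 ± 0.14). Each had all p53 deficient values above all wt values. Myc, whose product drives these genes, was at 5045, 5281 and 3861 against 5864, 5979 and 6424 (0.38 ± 0.18, adjusted p = 0.339), also without overlap; it was named after its values were seen.

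The mean log2 level over the 34 genes was 11.77, 11.70 and 11.80 in wt and 12.19, 12.26 and 12.20 in p53 deficient tumours. It was 11.79, 11.58 and 11.74 in miR-34a deficient and 12.09, 12.18 and 12.22 in double deficient tumours, so all 6 libraries without p53 lay above all 6 with it. Of 36 lists this separation held for the ribosome production and the hypoxia and glycolysis lists upward, and for the 3 p53 target lists downward. In double against miR-34a deficient tumours 23 of the 34 lay higher at an unadjusted p under 0.05 (7.47% of all genes did), and 2 rose, Mybbp1a (0.87 ± 0.16, adjusted p = 0.0318) and Nop56 (0.68 ± 0.14, adjusted p = 0.0492; in p53 deficient tumours 0.25 ± 0.14, named after its values were seen). Across the 26 alternatives 17 to 22 members lay higher in p53 deficient tumours. The list was drawn up with Ftsj3 and Mybbp1a already known to be high in these samples.

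**Figure D4:**
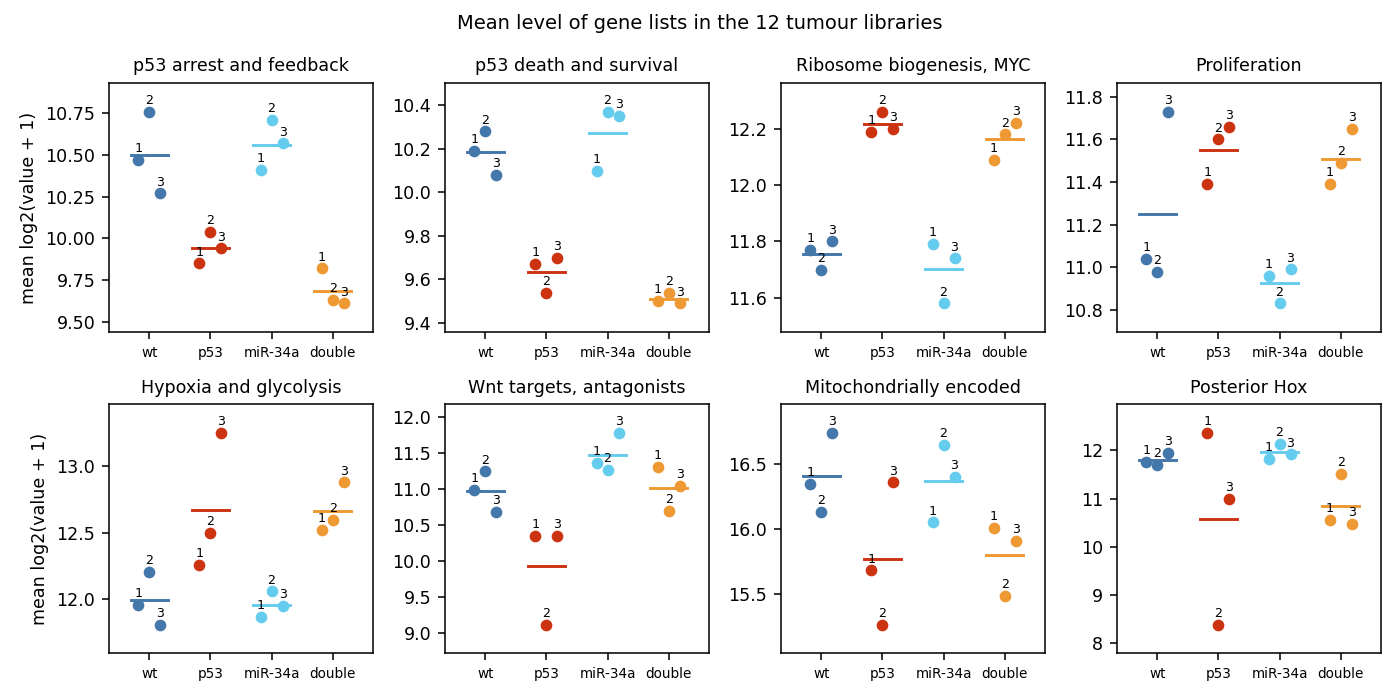
Mean log2(value + 1) of 8 gene lists in each of the 12 libraries, numbered by replicate, with the group mean as a bar; the y axes differ between panels. Ribosome production genes lie higher and the p53 targets lower in all libraries without p53, wt 3 is high in proliferation, and p53 deficient 2 is low in the posterior Hox and Wnt lists.

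Proliferation genes lay higher, in a number that moved with single libraries. Of 43, 11 lay higher, where 6.69% of all genes did, and none lower. The median was 0.27, and none passed the adjusted test. In double against miR-34a deficient tumours 32 of the 43 lay higher, where 7.47% of all genes did. There the median was 0.61, and 2 rose. Prc1, a midzone protein of the mitotic spindle, was at 3704, 4577 and 4063 in wt and at 5327, 8395 and 6967 in p53 deficient tumours (0.73 ± 0.16, adjusted p = 0.101), without overlap. Cenpe, a kinetochore motor, was at 0.77 ± 0.22, Cdc20, an activator of the anaphase-promoting complex, at 0.53 ± 0.16, and Top2a, topoisomerase II alpha, at 0.69 ± 0.30. For Top2a the values were 8390, 8732 and 18213 against 12870, 21835 and 19863, so that wt 3 lay among the p53 deficient libraries. Without wt 3, 31 members lay higher (7.43% of all genes), 5 without wt 1 or without wt 2, 6 without p53 deficient 3 and 7 without p53 deficient 2; adding the Y-linked level to the fit left 2.

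Glycolytic and hypoxia genes lay higher in p53 deficient tumours, most of all in p53 deficient 3. Of 28 members 13 lay higher, where 6.69% of all genes did, and none lower. The median was 0.57, and none passed the adjusted test. Pgk1, phosphoglycerate kinase, was at 22702, 19104 and 18450 in wt and at 26054, 42930 and 46398 in p53 deficient tumours (0.90 ± 0.21, adjusted p = 0.113). Hk2, hexokinase 2, was at 4980, 8751 and 5437 against 11562, 12477 and 15335 (1.07 ± 0.31). Ero1l, an endoplasmic reticulum oxidase, was at 3889, 3759 and 3848 against 4398, 8349 and 16793 (1.15 ± 0.39). All 3 had no overlap, and for Pgk1 and Ero1l p53 deficient 1 was close to wt. Ldha and Pkm, lactate dehydrogenase A and pyruvate kinase, were at 0.48 ± 0.18 and 0.44 ± 0.15. Without p53 deficient 3, 3 members lay higher (5.29% of all genes) and the median was 0.33; without wt 3, 5 lay higher.

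The 13 genes encoded by mitochondrial DNA all lay below 0, with a median of -0.59. At an unadjusted p under 0.05, 6 lay lower, where 8.62% of all genes did. Their mean log2 level was 16.35, 16.13 and 16.74 in wt and 15.68, 15.26 and 16.36 in p53 deficient tumours. By this level the groups overlapped. mt-Cytb, cytochrome b, was at 200253, 177951 and 248318 in wt and at 101744, 96515 and 170495 in p53 deficient tumours (-0.80 ± 0.25, adjusted p = 0.183). mt-Nd4, a complex I subunit, was at -0.77 ± 0.29. The p53 deficient values of mt-Cytb all lay below wt, with p53 deficient 3 the nearest. The number that lay lower was 12 without p53 deficient 3, 2 without wt 3, p53 deficient 1 or p53 deficient 2, and 2 after quantile normalization. Nuclear genes of the respiratory chain did not lie lower: of 48, 2 lay higher and none lower, with a median of 0.08.

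Of 29 Wnt pathway genes, 25 lay below 0. At an unadjusted p under 0.05, 12 lay lower and 2 higher, where 8.62% and 6.69% of all genes did. The median was -1.24. The number lower was 10 to 14 over the alternatives, while the median was -0.39 without p53 deficient 2, -0.53 without wt 2 and -0.68 with a pseudocount of 10. The lower members included secreted ligands and antagonists that active Wnt signalling induces. Wnt10a, a ligand gene, was at 3813, 11805 and 3469 in wt and at 980, 414 and 1738 in p53 deficient tumours (-2.60 ± 0.52, adjusted p = 0.0953). Wif1, a secreted inhibitor, was at 4891, 9620 and 3470 against 1793, 449 and 914 (-2.60 ± 0.53), and Wnt6, another ligand gene, at 3205, 3389 and 2436 against 476, 247 and 1483 (-2.41 ± 0.58). None of the 3 overlapped.

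Cd44, a cell surface receptor and Wnt target, lay the other way, at 14406, 14800 and 14789 in wt and at 24074, 20080 and 23788 in p53 deficient tumours (0.62 ± 0.15, adjusted p = 0.118). Its wt values were nearly equal and lay below all p53 deficient values. The mean log2 level of the list was 10.99, 11.25 and 10.69 in wt and 10.35, 9.12 and 10.35 in p53 deficient tumours, lowest in p53 deficient 2, the library low in posterior Hox genes. In double against miR-34a deficient tumours 4 lay lower and 3 higher, where 10.6% and 7.47% of all genes did. The median was -0.40, and Wnt10a was at -1.92 ± 0.52 there.

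Of 19 mesenchymal genes, 15 lay below 0. Of the 19, 5 lay lower and 1 higher, where 8.62% and 6.69% of all genes did, with a median of -0.58. Tead2, a transcription factor of the Hippo pathway, was at 4726, 5986 and 5909 in wt and at 2146, 1811 and 2896 in p53 deficient tumours (-1.30 ± 0.19, adjusted p = 0.0604). Vim, the mesenchymal filament vimentin, was at 2744, 6518 and 4280 against 2278, 1852 and 2199 (-1.01 ± 0.29, adjusted p = 0.152). Both had no overlap. Tead2 was at -0.31 ± 0.19 in double against miR-34a deficient tumours, and the difference of the 2 differences was 0.99 ± 0.27 (unadjusted p = 0.00389, adjusted p = 0.427). Snai2, a repressor of E-cadherin, was at 47, 74 and 61 against 33, 17 and 5 (-1.98 ± 0.58). Without wt 2, 3 members lay lower and the list's median was -0.01, and without p53 deficient 2 these were 3 and -0.20.

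Of 20 fibroblast and matrix genes none lay lower or higher, and the median was -0.26. Collagen gene Col3a1 was at -0.57 and Col6a2 at -0.86. Of 20 genes of fetal or regenerating epithelium 3 lay higher, with a median of -0.04; Ctgf, a target of YAP, was at 508, 682 and 762 against 1485, 2688 and 1983 (1.63 ± 0.37, adjusted p = 0.108).

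p53 induces the microRNA miR-34a, and published miR-34a targets showed both directions. Of 30, 6 lay higher and 3 lower, where 6.69% and 8.62% of all genes did, and the median was -0.08. Met, the receptor of hepatocyte growth factor, was at 3513, 3554 and 2894 in wt and at 5270, 4291 and 6040 in p53 deficient tumours (0.64 ± 0.15, adjusted p = 0.119), without overlap. In double against miR-34a deficient tumours, which lack the microRNA on both sides, Met was at 0.00 ± 0.15, and the difference of the 2 differences was -0.64 ± 0.22 (unadjusted p = 0.0132, adjusted p = 0.517). There 5 of the 30 list members lay higher and 3 lower at an unadjusted p under 0.05, with a median of -0.15. A part of miR-34a in these differences was not tested.

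Of 20 goblet cell markers 3 lay lower at an unadjusted p under 0.05, where 8.62% of all genes did, and the median was -0.75. Clca3, a secreted goblet cell protein, was at 49820, 39891 and 52572 in wt and at 9641, 4006 and 4483 in p53 deficient tumours (-3.08 ± 0.74, adjusted p = 0.119). Zg16, a lectin of mucus granules, was at 159419, 227526 and 223042 against 78510, 4212 and 3704 (-4.23 ± 1.49), with p53 deficient 1 much nearer to wt. Neither overlapped, and Tpsg1, a tryptase gene, was at -2.20 ± 0.54. The number that lay lower was 6 without p53 deficient 1, 7 without miR-34a deficient 3 and 2 without p53 deficient 2 or p53 deficient 3. The median was -0.20 without p53 deficient 2 and -0.43 without wt 3. Of 32 colonocyte markers 4 lay lower and 1 higher, where 8.62% and 6.69% of all genes did, and the median was -0.42. Car4, a carbonic anhydrase of surface cells, was at 207, 90 and 75 against 53, 15 and 22 (-2.06 ± 0.73). The higher entry, Clca4, was at 10366, 11857 and 11245 against 14771, 24478 and 31519 (1.01 ± 0.30). No single position was found for the symbol Clca4. Which gene of its family it names is therefore uncertain, and so is its place among colonocyte markers. Without wt 1, 1 colonocyte marker lay lower, and without miR-34a deficient 3, 7. In double against miR-34a deficient tumours 12 goblet and 16 colonocyte markers lay lower, where 10.6% of all genes did. There 2 members of each list fell, and the medians were -1.33 for goblet and -1.15 for colonocyte markers.

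Inflammatory genes gave one large difference. Nos2, inducible nitric oxide synthase, read 407, 841 and 1391 in the wt libraries against 2679, 3959 and 5029 in the p53 deficient ones (2.27 ± 0.44, 4.81 times, adjusted p = 0.0953), with no overlap. It was at 2.0 ± 0.44 in double against miR-34a deficient tumours (adjusted p = 0.0619). Of the 23 tested cytokine, chemokine and related genes 3 lay higher and 1 lower, where 6.69% and 8.62% of all genes did. The median was 0.36. Without wt 2, 7 lay higher and the median was 0.83; without wt 1 the median was 0.09, and without p53 deficient 2 it was 0.66. Il23a, a subunit of interleukin 23, was at 1180, 5201 and 4839 against 1174, 1137 and 779 (-1.61 ± 0.51), where wt 1 was close to the p53 deficient libraries.

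No marker of macrophages, neutrophils, mast cells or T cells passed the adjusted test. Of 19 macrophage markers 5 lay lower, where 8.62% of all genes did, and the median was -0.55. C1qa, of complement, was at 1284, 1388 and 536 in wt and at 542, 455 and 487 in p53 deficient tumours (-1.0 ± 0.37). Without wt 2 none of the 19 lay lower (6.83% of all genes), without wt 1, 1, without p53 deficient 2, 2, without p53 deficient 3, 3, and without p53 deficient 1, 8. Of 16 neutrophil markers 3 lay higher, where 6.69% of all genes did, and the median was 0.82. Ly6g was at 4555, 7234 and 4635 against 7051, 13517 and 10509 (0.90 ± 0.30). The number was 1 without p53 deficient 1, p53 deficient 3 or wt 1, and 6 without p53 deficient 2. The mean log2 level of the macrophage list was 7.20 to 7.86 in wt and 6.95 to 7.29 in p53 deficient tumours, so the groups overlapped. In double against miR-34a deficient tumours 3 of the 19 macrophage markers lay higher and none lower. There 7.47% of all genes lay higher and 10.6% lower, and the median of the list was -0.19. No member lay lower or higher among 17 T and cytotoxic cell genes (median 0.31), 12 mast cell genes (-1.03), 20 interferon response genes (-0.38) and 18 genes of alkylation and mismatch repair (0.08).

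**Figure D5:**
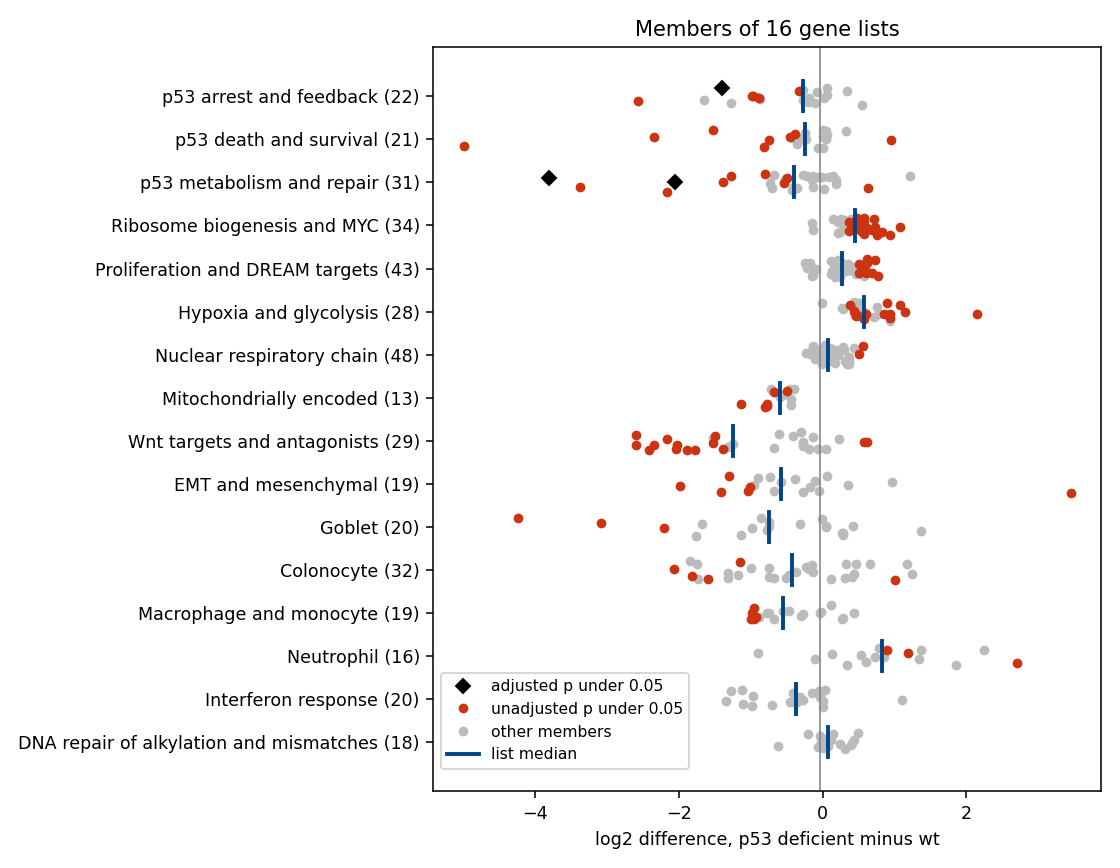
Log2 difference, p53 deficient minus wt, of every tested member of 16 gene lists (x axis), with list medians as bars and the median of all genes, -0.04, as a grey line. Black diamonds are members that passed the adjusted test, red points those at an unadjusted p under 0.05; ribosome production genes cluster above 0 and Wnt genes spread below it.

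The 12 highest differences among well expressed genes without overlap were led by haemoglobin and epidermal genes. Haemoglobin genes Hba-a1, Hbb-bs and Hbb-bt were at 4.0 ± 0.99, 3.66 ± 1.03 and 3.37 ± 0.89. Hba-a1 was at 72, 373 and 133 in wt and at 489, 7721 and 3931 in p53 deficient tumours, so that p53 deficient 1 lay just above wt 2. Prr9 (3.53 ± 0.70), a proline-rich epidermal gene, was at 101, 245 and 70 against 709, 2332 and 1668, and Sprr2h (3.83 ± 0.99), of the cornified envelope, at 21, 48 and 36 against 766, 85 and 1734. Apln, the vessel growth peptide apelin, was at 46, 107 and 56 against 233, 346 and 371 (2.24 ± 0.44, adjusted p = 0.0953), and rose by 2.30 ± 0.44 in double against miR-34a deficient tumours (adjusted p = 0.0402). Defb45, Trib3, Fscn2, Tnfrsf8, Nos2 and Hoga1 made up the rest of the 12 highest, between 2.24 for Hoga1 and 2.84 for Defb45.

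The 12 lowest held Trp53 and its targets Eda2r, Fam212b and Ephx1, the goblet gene Clca3 and 7 others. Irx5, a homeobox gene, was at 1473, 3704 and 6427 in wt and at 1080, 44 and 233 in p53 deficient tumours (-3.86 ± 0.91, adjusted p = 0.118). Slc30a2, a zinc transporter, was at 22842, 27027 and 13555 against 5800, 1140 and 4726 (-2.69 ± 0.53, adjusted p = 0.0953). Slc30a2 fell by 2.67 ± 0.53 in double against miR-34a deficient tumours (adjusted p = 0.0457), and Irx5 was at -3.86 ± 0.91 there (adjusted p = 0.0710). Spock2 (-2.93 ± 0.64), a matrix proteoglycan, Mt3 (-2.85 ± 0.57), a metallothionein, Angptl2 (-2.82 ± 0.68), a secreted angiopoietin-like protein, Fam43b (-2.72 ± 0.84) and Htra1 (-2.63 ± 0.61), a secreted protease, completed them. Angptl2 was at 0.20 ± 0.68 in double against miR-34a deficient tumours, with a difference of the 2 differences of 3.02 ± 0.97 (unadjusted p = 0.00936, adjusted p = 0.510).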

How the data were processed

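RNA of 12 colon tumours was sequenced, 3 libraries for each of 4 genotypes. The deposited values are a score per gene, whole numbers that the authors had normalized. Reads refer to mm10, per the submitters' processing notes. No source used here names the aligner, the counting or the way of scaling, so depth and counting precision are unknown. Count tests were therefore not used, although the design had allowed for counts. Upper quartiles lay between 1905 and 1982.25 in the 12 libraries. Their deviations from the genotype means spanned 7 dimensions where 8 were expected.

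Values were taken as log2(value + 1) without rescaling and tested with limma 3.58.1 in R 4.3.3 (trend, 1 mean per genotype, all 12 libraries, 8 residual degrees of freedom, Benjamini-Hochberg adjustment over 21322 genes). The same fit gave double against miR-34a deficient tumours and the difference of the 2 differences. The procedure was tested on simulated data. Replicate numbers were not treated as pairs. The lists, the motif search and the members to name were chosen with earlier results of these data known. Eligible to be named, though not all are printed, were Trp53, Vil1, the changed genes, the 12 largest differences in each direction (unadjusted p under 0.01, groups without overlap, mean of at least 100, no clone name), the p53 targets, and per list up to 4 members of smallest p and 2 of largest mean. Positions are from GENCODE M21 (GRCm38), found for 20099 of 21322 genes; figures used matplotlib 3.10.9. The alternatives covered scaling, pseudocount, filter, prior variance, groups in the fit, each library left out, replicate block, run code, Y-linked level and the missing dimension. Some results are not reported here.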

Additional observations from a re-analysis of the deposited data

Results flagged for a closer look

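For 5 genes the effect of p53 loss differed by limma's test between tumours with and without miR-34a, all through low values in double deficient tumours alone; double against miR-34a deficient tumours had all 3 libraries of the first below all 3 of the second for each. Fshr, the receptor of follicle-stimulating hormone, was at 2311, 2737 and 1286 in wt and at 1321, 1712 and 1264 in p53 deficient tumours (-0.50 ± 0.32). It was at 1187, 1701 and 1002 in miR-34a deficient and at 58, 33 and 32 in double deficient tumours, so that the difference of the 2 differences was -4.47 ± 0.46 (adjusted p = 0.00779). The other 4 bear names of predicted genes or pseudogenes. The difference of differences was -4.79 for Gm10093, -4.42 for Gm12196, -6.73 for Gm15195 and -4.49 for Gm7125 (adjusted p = 0.0258, 0.0258, 0.000684 and 0.0358). Near-identical copies can share their reads, which makes these values uncertain. None of the 5 passed in p53 deficient tumours against wt.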

How the results depend on the processing

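Of 26 alternatives, the 5 changed genes of p53 deficient against wt tumours became 3 with a pseudocount of 10, 2 with no filter on low values, 1 with only these 2 groups in the fit and 8 when miR-34a deficient 1 and p53 deficient 1, which carry another run code, were dropped. A covariate for the Y-linked level left 1 and one for the missing dimension 2. Leaving out each library gave 1 to 88: 1 without wt 1, 14 without wt 3, 88 without p53 deficient 1 and 2 to 4 without any other. For double against miR-34a deficient tumours the 193 became 79 without those of the other code, 86 with run code as a covariate, 73 with the Y-linked level and 57 with the missing dimension; leaving out a library gave 23 to 246 (42 without miR-34a deficient 2, 91 without double deficient 1, 110 without miR-34a deficient 3, 117 without miR-34a deficient 1). The 5 genes whose effect differed became 1 with the Y-linked level and 2 with the missing dimension, and 2 to 10 with a library left out (10 without p53 deficient 1). With the replicate number as a replicate block, counts were 2, 141 and 3; of the 3 p53 deficient and wt pairs with a shared number, 0 correlated above 0.1, and of all 18 same-number pairs 4 did, so numbers were not used as pairs. Signs turned for 3 named genes near 0: Mdm2 (-0.23 to 0.03 with a library left out) and Perp (-0.02) without wt 2, and Vil1, at 0.02 by median-of-ratios and 0.01 by upper-quartile rescaling, 0.20 with the Y-linked covariate, 0.09 without the other run code, and -0.16 to 0.13 with a library left out. The cause was not tested. List counts under these settings were added after the data were seen. Depth is unknown, so it sets no limit that could be given.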

Other observations

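Several further groups were read in p53 deficient against wt tumours, none with a member that passed the adjusted test. The counts below are at an unadjusted p under 0.05, where 6.69% of all genes lay higher and 8.62% lower. Of 24 cholesterol synthesis genes 1 lay higher and 2 lower at an unadjusted p under 0.05, with a median of 0.16. Lss, lanosterol synthase, was at 1170, 770 and 943 in wt and at 1991, 1306 and 2183 in p53 deficient tumours (0.91 ± 0.35). Tm7sf2, a sterol reductase, was at 3495, 2029 and 2426 against 1485, 1107 and 1672 (-0.88 ± 0.21), so the 2 enzymes of the same pathway lay on opposite sides. Of 18 endothelial markers 2 lay higher, with a median of 0.17; Cdh5, vascular endothelial cadherin, was at 63, 176 and 72 against 293, 170 and 210 (1.23 ± 0.38). Of 18 smooth muscle genes 1 lay higher (median 0.14).

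Of 15 stem cell genes 2 lay higher and 4 lower (median -0.24). Ascl2, a stem cell transcription factor, was at 3683, 1768 and 1929 in wt and at 1718, 314 and 1319 in p53 deficient tumours (-1.38 ± 0.51), without overlap. Of 12 B and plasma cell genes 3 lay lower (median -0.44), and Igha, the immunoglobulin A heavy chain, was at 2883, 2032 and 2271 against 1452, 609 and 701 (-1.47 ± 0.63). Of 18 enteroendocrine genes 1 lay lower (median 0.43), of 13 tuft cell genes none lay higher or lower (-0.75), and of 11 squamous genes 1 lay higher (0.12).

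Of 15 posterior Hox genes 5 lay lower, with a median of -0.48. Hoxd10 was at 8091, 20072 and 14518 in wt and at 11869, 22 and 1620 in p53 deficient tumours (-4.13 ± 1.69), so that p53 deficient 1 lay within the wt range and p53 deficient 2 far below it. Hoxa10 was at 3658, 3845 and 3170 against 2817, 730 and 1734 (-1.21 ± 0.36), with p53 deficient 2 again the lowest.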
